A study of Mus musculus with 9 samples.

Results

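The cytosolic ribosomal protein genes code for the proteins of the ribosome that translates nuclear-encoded mRNA. They were chosen by symbol alone: Rpl or Rps, a number and at most 1 further letter, with Rplp0 to Rplp2 and Rpsa, and without the pseudogenes that carry -ps. This rule took 82 of the 46078 gene identifiers counted, of which 32 belong to the small (40S) subunit and 50 to the large (60S) subunit. Among them, Rpl6l and Rps4l are typed as pseudogenes in the annotation, and 7 further ribosomal protein genes and paralogs that the symbol rule misses (such as Fau, Rps3a1, Rps27rt, Rpl22l1, Rpl36al and Rpl7l1) are given beside them where they matter.

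The mRNA was measured by poly-A RNA-seq in 9 libraries of EGFP-SSC, a mouse spermatogonial stem cell (SSC) line of wild-type genotype that carries green fluorescent protein. The 0 h group came from normal culture on mouse embryonic fibroblasts arrested with mitomycin C, in an SSC medium with GDNF, EGF and basic FGF. The medium therefore differed between 0 h and the later groups. The study describes flow sorting over several stages of culture and does not say whether this included 0 h. For the 24 h and 48 h groups, the line was mixed in equal parts with testis somatic cells of mice aged 3 to 7 days after birth and treated with busulfan, in α-MEM with KSR, BMP-4/7, retinoic acid, activin A, testosterone, FSH and BPE, and the cells with EGFP fluorescence were collected by sorting after that time. Each time point had 3 biological replicates, all of 1 cell line, so the p-values below measure the spread between cultures of that line.

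Each ribosome carries 1 copy of nearly every ribosomal protein, so these genes are transcribed at high and similar levels in growing cells. In vertebrates, their mRNAs typically begin with a run of pyrimidines, the 5′ terminal oligopyrimidine (TOP) motif, through which mTORC1 signalling and the La-related protein Larp1 control their translation. In the testis, several X-linked ribosomal protein genes have autosomal copies, such as Rpl10l for Rpl10 and Rpl39l for Rpl39, which are known for their expression in male germ cells.

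The pyrimidine runs are shown first because the TOP motif is typical of these genes and the symbol rule did not use it. The search took any run near an annotated start, not only 1 at the 5′ end of the mRNA. Relative to the annotated start, the run of Rpl39l begins at -26 and that of Rpl10 at 40. The windows come from RefSeq promoters on GRCm38.p6, are written 5′ to 3′ on the strand of the gene and have the longest run of C and T near the annotated start in capitals. Windows that end with the run were reached by the limit of the searched stretch. The genes are among those that fell most after co-culture, the member with the largest rise from 24 h to 48 h, the most counted member, genes of the paralog pairs, and Rplp0 as a stalk protein gene without a run of at least 8 pyrimidines.
Rpl39 (chrX:37085173-37085194, minus strand): ggtcccggCCTTTCTCTTCTCC
Rpl39l (chr16:10170194-10170223, plus strand): acccactgCCTCTCCCTagctcccaggcct
Rpl10 (chrX:74270848-74270865, plus strand): tgggagcgTCTCTTTTCC
Rpl10l (chr12:66284390-66284419, minus strand): aaatttggCCTCCattttgcggctggcggt
Rps4x (chrX:102189342-102189359, minus strand): gaccctaaTTTCTTCgtt
Rpl34 (chr3:130730333-130730362, minus strand): ctcacccgCCCCTTCCTTTTCCTCTTCCgg
Rpl35a (chr16:33056469-33056498, plus strand): ggggcttgCCTTCCTCTTTCCgccatcttg
Rpl26 (chr11:68901579-68901608, plus strand): gcgtgtagTTCTCTTTCCTTTTgcggccat
Rpl4 (chr9:64173405-64173434, plus strand): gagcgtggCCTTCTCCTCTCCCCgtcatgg
Rps12 (chr10:23787180-23787209, minus strand): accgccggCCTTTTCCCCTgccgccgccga
Rplp0 (chr5:115559470-115559499, plus strand): ccgcctggTTCTCCTataaaaggcacacgc

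RefSeq promoters were at hand for 60 of the 82 genes. A run of at least 8 pyrimidines lay on the sense strand between 30 bases before and 50 bases after an annotated start in 48 of them (80.0%), against 5632 of 17492 protein-coding genes (32.2%) searched the same way. The letters CCGGAAG, on either strand of the 300 bases around the start, were found in 25 of the 60 (41.7%), against 12.9% of protein-coding genes. AAGATGGCG was found in 3 (5.0%, against 2.14%) and TATAAA in 6 (10.0%, against 14.8%). Of the genes printed, Rpl10l, Rps4x and Rplp0 had no run of 8. The 48 genes with a run had a median log2 fold change of -0.48 at 24 h relative to 0 h, and the 12 without had -0.41, and 18 of the 48 and 2 of the 12 were called lower (14.2% of all genes tested were). A gene can have several annotated starts, and a match is a description of the letters, not of a start used in these cells.

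Library totals ran from 16825251 to 22201892 counts. The ribosomal protein genes took 4.29%, 5.54% and 6.21% of all counts in the 3 libraries of 0 h, a mean of 5.34% ± 0.971 (SD, n = 3). At 24 h they took 4.15%, 3.70% and 4.69% (4.18% ± 0.497, n = 3), and at 48 h 4.79%, 4.88% and 4.68% (4.78% ± 0.0975, n = 3). The shares of 0 h and 24 h overlapped, since replicate 1 of 0 h lay below replicate 3 of 24 h, and the 3 libraries of 48 h lay within the range of 0 h. Small-subunit genes held 2.20% ± 0.373 of the counts at 0 h, 1.78% ± 0.216 at 24 h and 2.00% ± 0.0187 at 48 h. Large-subunit genes held 3.14% ± 0.604, 2.41% ± 0.281 and 2.79% ± 0.0847 (SD, n = 3 each). The 268 pseudogenes with -ps in the symbol held a further 0.594% ± 0.154, 0.530% ± 0.0347 and 0.588% ± 0.0130.

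**Figure D1:**
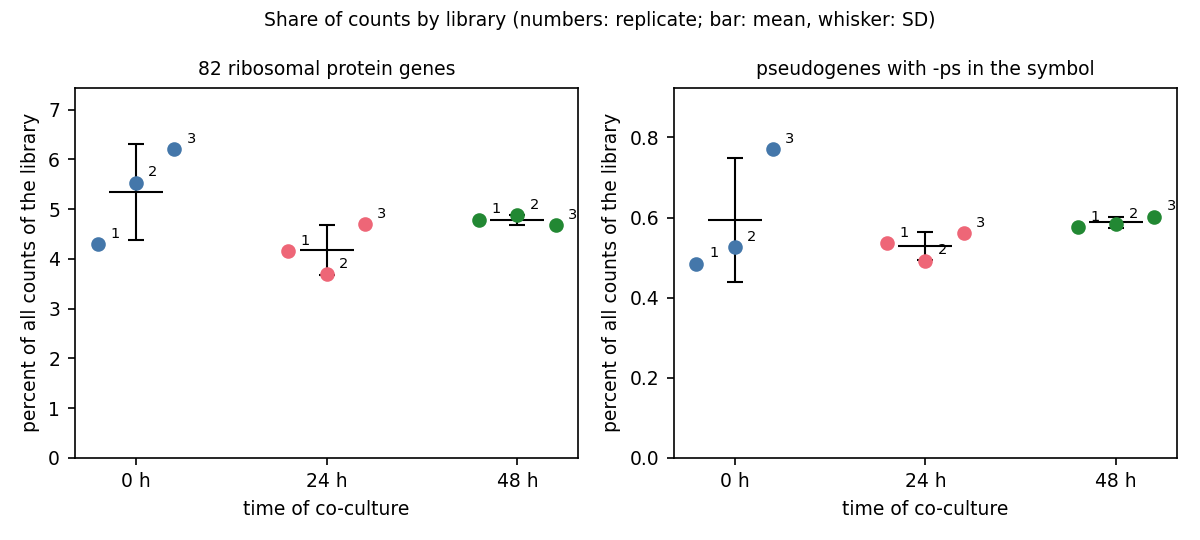
Percent of all counts of a library on the 82 ribosomal protein genes (left) and on the 268 pseudogenes (right), by time of co-culture. Points are libraries with their replicate number, bars the mean and whiskers the SD (n = 3). On the left, the 0 h libraries spread from 4.29% to 6.21% and the 48 h libraries from 4.68% to 4.88%.

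The libraries of 0 h lay far apart. Replicate 1 was the lowest of the 3 for 69 of the 82 genes, and replicate 3 was the highest for 58. Over the genes with at least 10 counts in a pair of libraries, the chi-square per degree of freedom between libraries was 37.8 for replicates 1 and 2, 35.5 for replicates 2 and 3 and 81.4 for replicates 1 and 3, against 7.13 to 25.97 for pairs within 24 h or 48 h. The median log2 fold change of the members at 24 h was -0.60 without replicate 1 of 0 h and -0.31 without replicate 3. Replicate 2 of 24 h was the lowest of its group for 68. The gap of replicate 1 to the other 0 h libraries was wider for short transcripts, with a median log2 difference of -0.78 over the 30 genes whose principal transcript is under 600 bases, -0.38 over the 28 of 600 to 900 bases and -0.40 over the 24 of 900 or more. For Rpl23a replicate 1 held 1264 counts, against 10389 and 8663 in the others. What part of the results below comes from these libraries was not tested beyond the values given without them.

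Levels differed widely between members even per transcript length. With the length of the principal coding transcript, the mean over the 9 libraries had a median of 693 FPKM (counts scaled by library size and by transcript length, computed here from CPM, the TMM-normalized counts scaled by library size alone), and 64 of the 82 genes lay within 2-fold of it. The highest were Rplp2, at 2023 FPKM, and Rplp1, at 1854 FPKM, the acidic proteins of the stalk that recruits translation factors. Rpl4, a core protein of the large subunit, had the most reads, with 2638, 2844 and 3166 CPM at 0 h. At the other end stood Rpl24 at 4.92 FPKM, Rpl3l at 5.27 FPKM and Rpl29 at 45.0 FPKM. Rpl3l is a paralog of Rpl3 known from striated muscle. Over the union of exons the median was 250.3 FPKM, so the scale of these levels depends on the length used.

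Most members have near-identical copies, so that counts may be split between genes. At 97% identity over at least 75 bases, 72 of the 82 principal transcripts matched a transcript of another gene, 59 of them over more than 50% and 14 over more than 90% of their length. Rpl24 matched over 83.5% and Rpl29 over 86.1%. Rpl21 had the most partners, 35 other genes. Rpl3l, Rpl4, Rpl39l and Rps4l had no such match, and Rpl39 matched over 25.7%. The protocol marks no strand, so reads of a member and of an antisense partner cannot be told apart.

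The first comparison asked how these mRNAs changed over the first day of co-culture. At 24 h, 26 of the 82 ribosomal protein genes were called lower relative to SSCs at 0 h and 0 were called higher, at an adjusted p of up to 0.05 (edgeR's quasi-likelihood test, Benjamini-Hochberg over the genes tested). Among all 17592 genes tested, 14.2% were called lower and 11.4% higher. The called genes were 11 of the 32 of the small subunit and 15 of the 50 of the large subunit. The log2 fold change was below 0 for 81 of the 82, against 49.5% of all genes, with a median of -0.46 against 0.01 over all genes, a level of 0.726 times that at 0 h. The libraries of both groups did not overlap, with 24 h lower, for 34 members, against 22.2% of all genes. For rises, 0 members had an unadjusted p under 0.05, and DESeq2 also called 0 higher, with 34 lower. The share of all genes that DESeq2 called is not given here.

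How many genes passed the test rested on single libraries. Without replicate 1 of 0 h, 64 members were called lower, where 16.1% of all genes were. Without replicate 3 of 0 h, 22 were called lower and 2 higher, Rpl10l and Rps18. The log2 fold change of Rps18 was then 0.50, against -0.14 with all libraries. Without replicate 2 of 0 h 14 were called lower, and without replicates 1, 2 and 3 of 24 h 8, 9 and 17. Apart from the fit without replicate 1 of 0 h, the share of all genes called in these fits is not given here. Whether calls over all genes moved in the same way was not tested. All 82 members passed the expression filter. Of the 26, 8 were called whichever library was left out: Rpl4, Rpl7, Rpl17, Rpl26, Rpl35a, Rpl39, Rps4x and Rps15a.

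In the large subunit, Rpl39 fell most. It codes for a very small protein that lines the exit tunnel of the nascent chain. Its levels were 88.9, 209 and 177 CPM at 0 h, 35.8, 34.0 and 49.0 CPM at 24 h and 33.5, 31.0 and 38.7 CPM at 48 h. Every co-culture library lay below every 0 h library, and 24 h and 48 h overlapped. The log2 fold change was -1.99 ± 0.31 (SE) at 24 h (adjusted p = 0.00334) and -2.20 ± 0.30 at 48 h (adjusted p = 0.0015), both relative to 0 h.

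Among the large-subunit genes called, Rpl17, Rpl35a, Rpl34 and Rpl26 followed. Rpl17, which lies at the outer mouth of the exit tunnel, had 609.5, 628 and 649.8 CPM at 0 h and 297, 294 and 372 CPM at 24 h, and fell by 0.96 ± 0.12 on the log2 scale (adjusted p = 0.00127). Rpl35a, a protein of the large subunit whose loss causes Diamond-Blackfan anaemia in humans, had 633, 752 and 789 CPM at 0 h and 391, 284 and 455 CPM at 24 h, and fell by 0.93 ± 0.18 (adjusted p = 0.00945). In both genes the groups were well separated. Rpl34 fell by 0.89 ± 0.24 (adjusted p = 0.0328), but its 0 h libraries spread from 469 to 930.2 CPM, and it was called in 2 of the 6 fits that left out a library. Rpl26, known for binding the p53 mRNA, had 918, 999 and 883 CPM at 0 h and 466, 485 and 577 CPM at 24 h, a log2 fold change of -0.86 ± 0.12 (adjusted p = 0.00185). Rpl37 had -0.81 ± 0.16 (adjusted p = 0.00969). Rpl4, the most counted member, went to 1729, 1771 and 1980.5 CPM, a log2 fold change of -0.65 ± 0.12 (adjusted p = 0.00745).

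In the small subunit, Rps4x fell most. This X-linked gene codes for a protein of the 40S body and had 156, 147 and 162 CPM at 0 h, 68.6, 80.6 and 99.0 CPM at 24 h and 70.8, 61.9 and 85.1 CPM at 48 h. All 6 co-culture libraries were below the 0 h libraries. The log2 fold change was -0.90 ± 0.14 at 24 h (adjusted p = 0.00354) and -1.10 ± 0.14 at 48 h (adjusted p = 0.000951). Rps27 fell by 0.86 ± 0.24 at 24 h (adjusted p = 0.0354), with 240.0, 463 and 302 CPM at 0 h and 153, 186 and 210.4 CPM at 24 h, and 98.8% of its transcript matched Rps27rt and another gene. Rps14 fell by 0.80 ± 0.23 (adjusted p = 0.0379) and Rps15a by 0.71 ± 0.12 (adjusted p = 0.00516). Rps6, the substrate of S6 kinase, had 1170.2, 1227 and 1416 CPM at 0 h and 803, 766 and 979 CPM at 24 h, a log2 fold change of -0.57 ± 0.14 (adjusted p = 0.0195). Rpsa, which also serves as a laminin receptor, had -0.54 ± 0.14 (adjusted p = 0.0292).

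Members with roles of their own did not all pass the test. Rpl5 and Rpl11 form, with 5S rRNA, the particle that binds Mdm2. Rpl5 fell by 0.56 ± 0.12 (adjusted p = 0.0141), whereas Rpl11 had a log2 fold change of -0.77 ± 0.25 (adjusted p = 0.061), with 321 to 637 CPM at 0 h and 238 to 339.5 CPM at 24 h. Rps19 (-0.41 ± 0.25, adjusted p = 0.285), Rps25 (-0.36 ± 0.18, adjusted p = 0.20) and Rpl38 (-0.92 ± 0.29, adjusted p = 0.0528) were not called at 24 h. Rpl38, which is known for its part in the translation of Hox mRNAs, was called at 48 h. Rpl10a was called at 24 h, at -0.59 ± 0.14 (adjusted p = 0.0206).

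Of the 3 stalk protein genes, 0 were called at 24 h. Rplp0, the base of the stalk, had 1368, 1408 and 1522 CPM at 0 h and 1165, 1233 and 1449 CPM at 24 h, a log2 fold change of -0.15 ± 0.12 (adjusted p = 0.426). For Rplp1 it was -0.23 ± 0.28 (adjusted p = 0.623) and for Rplp2 -0.26 ± 0.22 (adjusted p = 0.443). In Rplp1 and Rplp2, replicate 1 of 0 h, at 589 and 614 CPM, lay below every 24 h library.

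**Figure D2:**
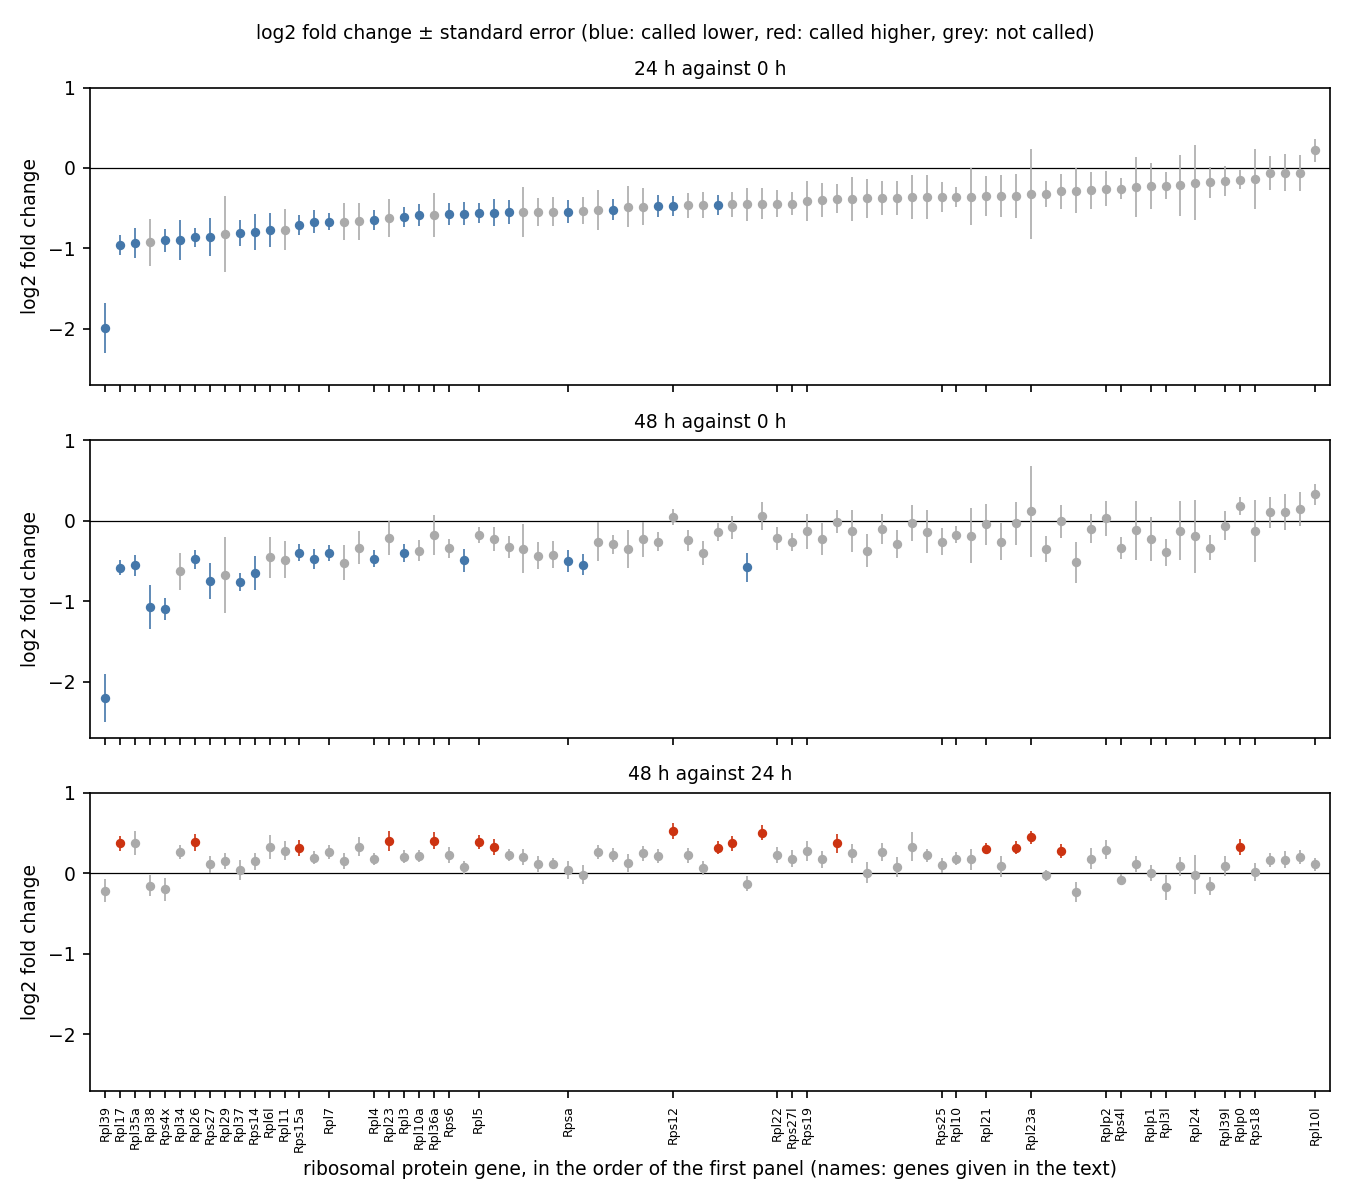
log2 fold change (vertical axis, ± SE) of each of the 82 genes in 3 comparisons, ordered by the first, with names for genes given in the text. Blue genes were called lower (26 at 24 h and 18 at 48 h, against 0 h), red genes higher (17 at 48 h against 24 h) and grey genes were not called. Rpl39 stands below all others in both comparisons with 0 h.

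From 24 h to 48 h, the direction turned. Of the 82 genes, 17 were called higher at 48 h than at 24 h and 0 lower (edgeR's quasi-likelihood test), where 8.61% of all 17499 genes tested were called higher and 12.7% lower. The log2 fold change was above 0 for 71 of the 82, against 49.4% of all genes, and its median was 0.20, against -0.0045 over all genes. The libraries of both groups did not overlap, with 48 h higher, for 28 members, against 18.6% of all genes. The called genes were 6 of the small and 11 of the large subunit. For falls, 0 members had an unadjusted p under 0.05 and DESeq2 called 0, while it called 34 higher. This comparison shares its 24 h libraries with the one above. The count was 48 without replicate 3 of 24 h, 4 without replicate 1 or 2 of 24 h, 6 and 7 without replicates 1 and 3 of 48 h, 14 without replicate 2 of 48 h, and 1 when all 9 libraries shared 1 fit. The share of all genes called in these fits and by DESeq2 is not given here. These counts therefore cannot be set against it.

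Rps12 rose most. This small-subunit gene had 354, 328 and 432 CPM at 24 h and 513, 522 and 582 CPM at 48 h, a log2 fold change of 0.53 ± 0.10 (adjusted p = 0.00672). Its levels at 0 h, 538, 509 and 515 CPM, overlapped those at 48 h, and 91.1% of its transcript matched other genes. Rpl23a, a docking site for factors at the tunnel exit, rose by 0.45 ± 0.08 (adjusted p = 0.0047), from 246, 259 and 303 CPM to 367, 372 and 371 CPM. Both genes were called whichever library was left out. Rpl23 rose by 0.41 ± 0.12 (adjusted p = 0.0422) and Rpl36a by 0.41 ± 0.11 (adjusted p = 0.0283). Rplp0 was also called, at 0.33 ± 0.10 (adjusted p = 0.0403), reaching 1575, 1505 and 1801 CPM.

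Rpl39 and Rps4x were not among the genes that rose. Between 24 h and 48 h, their log2 fold changes were -0.21 ± 0.14 (adjusted p = 0.301) and -0.20 ± 0.14 (adjusted p = 0.353).

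After 2 days, the mean level was still below that of 0 h for 73 members and above that of 24 h for 72. At 48 h, 18 of the 82 genes were called lower than at 0 h and 0 higher (edgeR's quasi-likelihood test), where 18.5% of all 17755 genes tested were called lower and 13.0% higher. At 22.0%, the share of members called lower was near that of all genes. The log2 fold change was below 0 for 73 members, against 48.8% of all genes, with a median of -0.26 against 0.02. For 31 members the libraries of both groups did not overlap, with 48 h lower, against 25.4% of all genes. Of rises, 1 had an unadjusted p under 0.05 and DESeq2 called 0, with 18 falls. Both comparisons with 0 h use the same 0 h libraries, and 15 members were called lower in both. Without replicate 1 of 0 h, 50 members were called lower at 48 h, where 21.1% of all genes were. Without replicate 2 of 0 h the count was 9, without replicate 3 of 0 h 14, and without replicates 1, 2 and 3 of 48 h 4, 6 and 7. For these last fits and for DESeq2, the share of all genes called is not given here.

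The largest net falls were those of Rpl39 and Rps4x given above, followed by Rpl38. Rpl38 had 152, 345 and 270.2 CPM at 0 h and 124, 131 and 108 CPM at 48 h, so that the groups did not overlap, and a log2 fold change of -1.08 ± 0.27 (adjusted p = 0.0218). Rpl37 fell by 0.76 ± 0.12 (adjusted p = 0.00265) and Rps27 by 0.75 ± 0.22 (adjusted p = 0.0407). In contrast, Rps6 (-0.34 ± 0.12, adjusted p = 0.0634), Rpl10a (-0.37 ± 0.13, adjusted p = 0.0647) and Rpl5 (-0.18 ± 0.10, adjusted p = 0.218) were not called at 48 h. Over the 3 time points, the mean level was lowest at 24 h for 71 of the 82 genes, at 48 h for 10 and at 0 h for 1, Rpl10l.

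**Figure D3:**
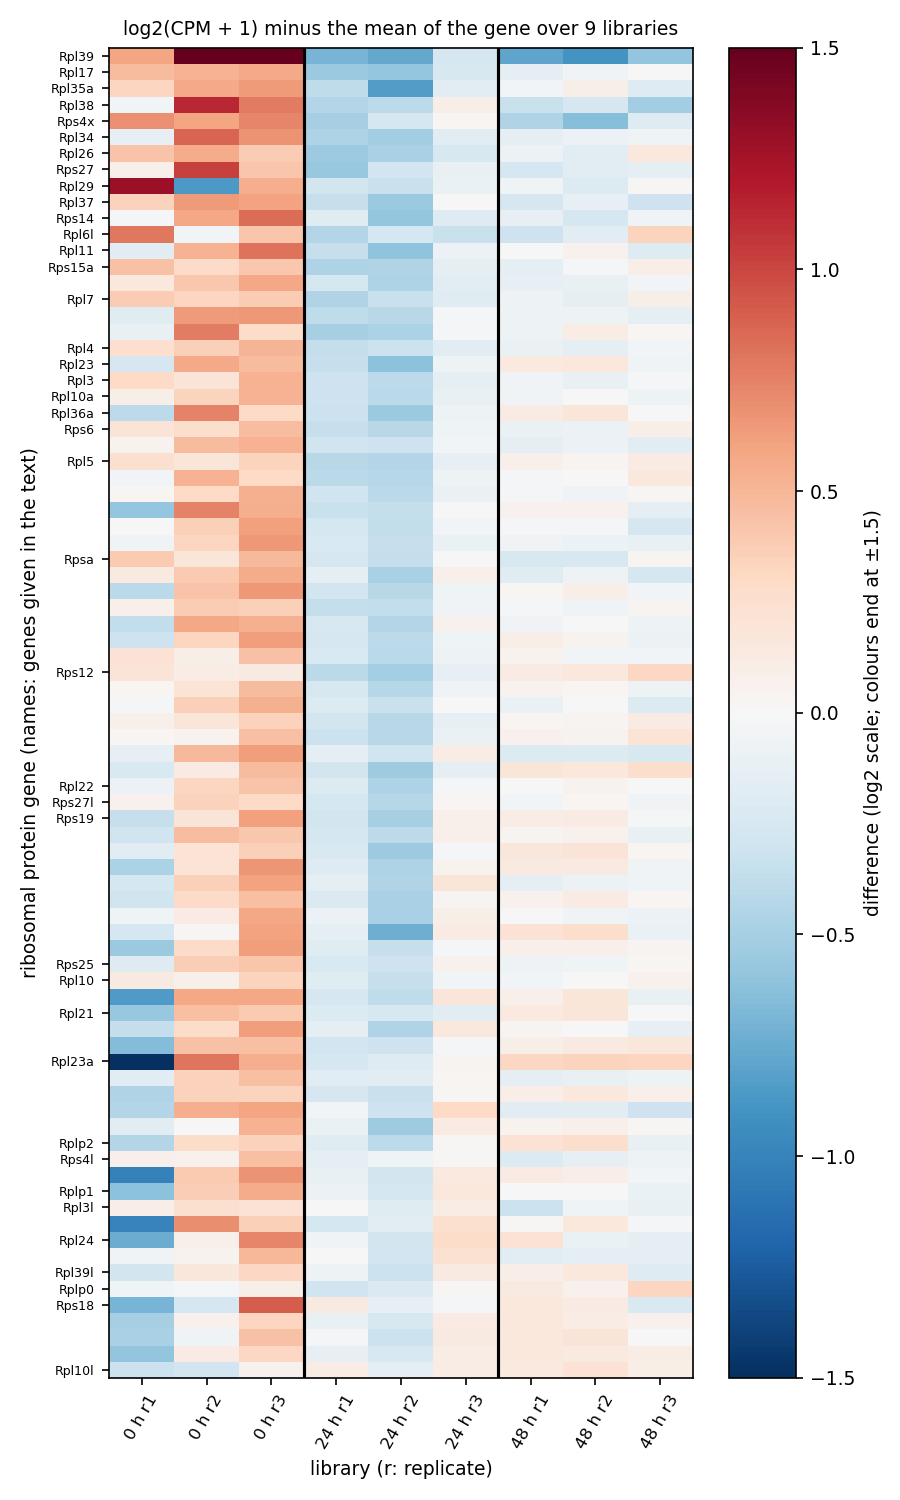
Heat map of log2(CPM + 1) minus the mean of the gene over the 9 libraries, with 1 row a gene (ordered as by the fold change at 24 h) and 1 column a library, with names for genes given in the text. Red is above and blue below the mean of the gene. The columns of 24 h are blue for most genes, replicate 1 of 0 h is bluer than the other 0 h libraries, and Rpl39 in the top row is red at 0 h only.

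Paralog pairs differed in how the copies moved. Rpl39l, the autosomal paralog of Rpl39, had 61.2, 84.1 and 92.7 CPM at 0 h, 70.6, 59.1 and 81.5 CPM at 24 h and 79.5, 83.2 and 64.7 CPM at 48 h, with all groups overlapping. Relative to 0 h, it differed by -0.16 ± 0.18 on the log2 scale at 24 h (adjusted p = 0.595) and by -0.06 ± 0.18 at 48 h (adjusted p = 0.824). The share of Rpl39l in the counts of both genes was 40.8%, 28.7% and 34.3% at 0 h, 66.3%, 63.5% and 62.5% at 24 h and 70.3%, 72.8% and 62.6% at 48 h. The 0 h libraries lay below all others.

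Rpl10l, the retrogene of X-linked Rpl10, was the member with the highest log2 fold change at 24 h and at 48 h, though it was not called in either. It had 113, 116 and 148 CPM at 0 h, 153, 129 and 153 CPM at 24 h and 157, 164 and 151 CPM at 48 h. The groups of 0 h and 48 h did not overlap, by a narrow margin, and the log2 fold change was 0.22 ± 0.14 at 24 h (adjusted p = 0.316) and 0.33 ± 0.13 at 48 h (adjusted p = 0.0984). Rpl10 had -0.36 ± 0.12 (adjusted p = 0.074) and -0.17 ± 0.11 (adjusted p = 0.267). The share of Rpl10l in their counts was 23.9% ± 1.16 at 0 h, 32.0% ± 1.10 at 24 h and 30.9% ± 1.44 at 48 h (SD, n = 3), without overlap between 0 h and the later groups. Rpl10 matched other genes over 92.6% of its transcript and Rpl10l over 62.5%, so this share may depend on how shared reads were counted.

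Rps4l, typed as a transcribed pseudogene of the Rps4x family, was more abundant than Rps4x in every library, at 312, 307 and 403 CPM at 0 h, 267, 282 and 298 CPM at 24 h and 256, 271 and 280.4 CPM at 48 h. On the log2 scale, it differed from 0 h by -0.26 ± 0.13 at 24 h (adjusted p = 0.201) and by -0.34 ± 0.13 at 48 h (adjusted p = 0.0936), and it made up 68.5% ± 2.50 of the counts of the pair at 0 h, 77.4% ± 2.28 at 24 h and 78.8% ± 2.39 at 48 h. Rps4x matches other genes over 81.3% of its transcript, so its own level is less certain than that of Rps4l. The share of Rpl7l1 beside Rpl7 was 15.6% ± 1.53, 22.8% ± 1.73 and 19.1% ± 1.15, that of Rpl3l beside Rpl3 0.969% ± 0.125, 1.25% ± 0.0561 and 0.965% ± 0.120, and that of Rps27l beside Rps27 21.5% ± 4.02, 25.9% ± 3.05 and 26.8% ± 1.04. Rpl36al made up 40.7% ± 3.31, 49.0% ± 2.72 and 41.2% ± 0.829 beside Rpl36a, which matched other genes over 90.7% of its transcript. In 2 pairs the mean share was lower at 24 h than at 0 h, with Rpl22l1 at 23.8% ± 6.95, 22.3% ± 0.659 and 20.5% ± 2.70 beside Rpl22, and Rps27rt at 8.52% ± 3.20, 8.12% ± 0.206 and 8.99% ± 1.44 beside Rps27. These shares were given no test: with 3 libraries against 3, a two-sided exact permutation test cannot go below p = 0.10.

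**Figure D4:**
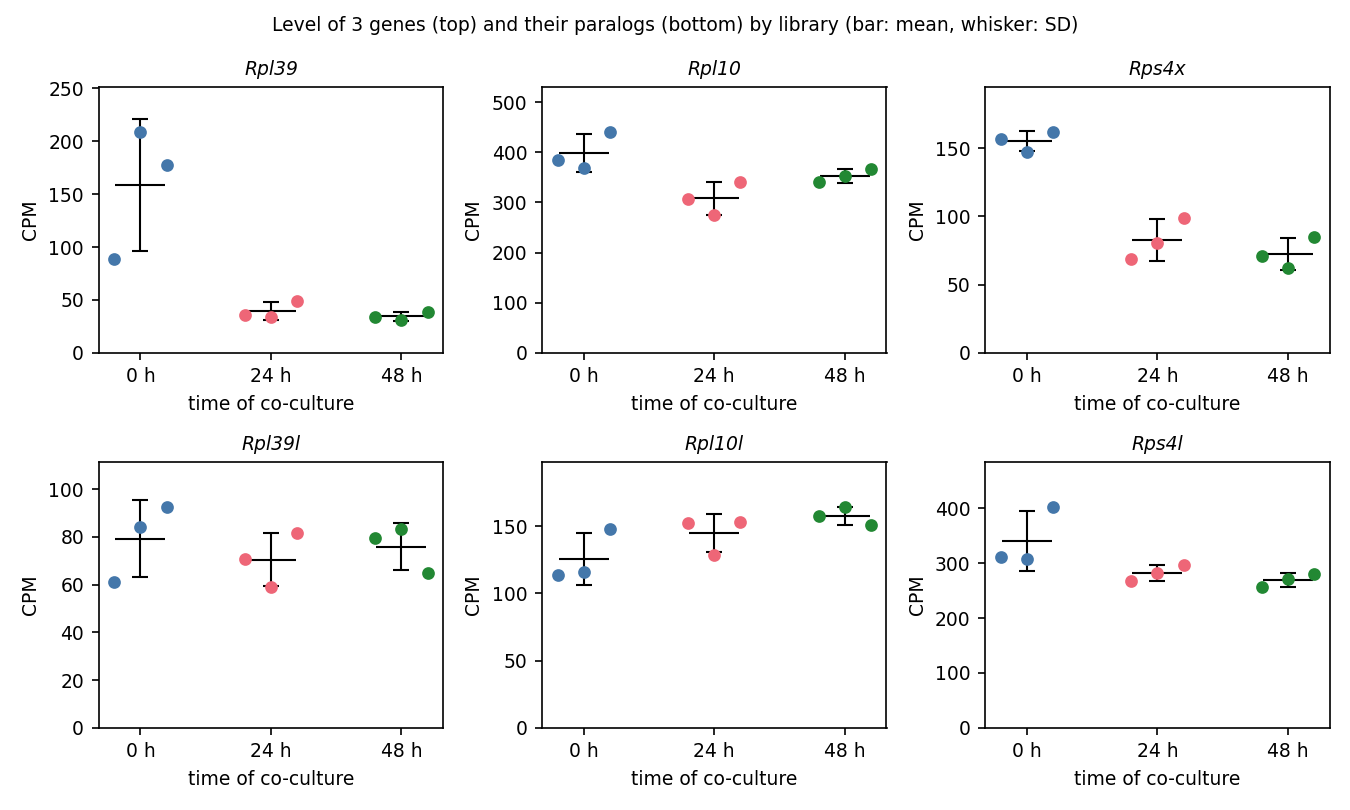
Level in CPM of Rpl39, Rpl10 and Rps4x (top) and of Rpl39l, Rpl10l and Rps4l (bottom) in each library, by time of co-culture. Points are libraries, bars the mean and whiskers the SD (n = 3), and every axis starts at 0. Rpl39 and Rps4x drop from 0 h to 24 h, whereas the 3 groups of Rpl39l overlap.

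Of the 7 genes outside the symbol rule, 1 was called lower at 24 h (where 14.2% of all genes were), Rps27rt, at -0.83 ± 0.18 (adjusted p = 0.0127), and 0 were called at 48 h relative to 0 h or 24 h. Fau, whose product is the precursor of the 40S protein S30, had -0.38 ± 0.20 at 24 h (adjusted p = 0.209), and Rps3a1 had -0.13 ± 0.14 (adjusted p = 0.547). Of the pseudogenes with -ps in the symbol, 161 were tested at 24 h, 5 of them called lower and 0 higher, with a median log2 fold change of -0.07, and at 48 h relative to 24 h 15 of 162 were called higher and 0 lower, with a median of 0.13, where 8.61% of all genes were called higher.

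The other genes of the translation machinery were read from lists. The list nearest to the ribosomal protein genes was that of other TOP mRNAs and snoRNA host genes. At 24 h, 6 of 12 tested were called lower and 0 higher, with a median log2 fold change of -0.46. Of all genes tested, 14.2% were called lower and 11.4% higher. Rack1, a 40S-bound scaffold, had 1105, 1124 and 1384 CPM at 0 h and 723, 682 and 807 CPM at 24 h, a log2 fold change of -0.69 ± 0.13 (adjusted p = 0.00777). Btf3 and Naca, which form the nascent polypeptide-associated complex, fell by 0.81 ± 0.11 (adjusted p = 0.0018) and 0.73 ± 0.13 (adjusted p = 0.0064). The other genes called lower at 24 h were Tpt1, Pabpc1 and Snhg6. At 48 h relative to 24 h, 3 of the 12 were called higher and 0 lower, with a median of 0.23. In that comparison, 8.61% of all genes were called higher and 12.7% lower.

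The ribosome assembly factors were called in both directions. At 24 h, 1 of 43 large-subunit factors was called higher and 2 lower, with a median of -0.05. Of 49 small-subunit factors, 3 were called higher and 3 lower, with a median of -0.11. Among all genes tested at 24 h, 11.4% were called higher and 14.2% lower. Gnl3l, a nucleolar GTPase, fell by 0.89 ± 0.11 (adjusted p = 0.00119), and Nol6 rose by 0.55 ± 0.11 (adjusted p = 0.0121). From 24 h to 48 h, 6 of the 43 large-subunit and 11 of the 49 small-subunit factors were called higher, against 1 and 2 lower, where 8.61% of all genes were called higher and 12.7% lower. Of the small-subunit factors, 34 had a log2 fold change above 0. Of 17 snoRNP and nucleolar proteins, 0 were called higher and 2 lower at 24 h.

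Of the 15 genes of the RNA polymerase I machinery tested, which makes rRNA, 2 were called higher and 1 lower at 24 h. The shares of all genes were 11.4% and 14.2%. From 24 h to 48 h, 6 were called higher and 0 lower, where 8.61% and 12.7% of all genes were. Polr1a, its largest subunit, had 79.3, 76.6 and 74.6 CPM at 0 h, 129, 116 and 116 CPM at 24 h and 160.5, 169 and 171 CPM at 48 h, with no overlap between groups. It rose by 0.66 ± 0.11 at 24 h (adjusted p = 0.00364) and by 1.12 ± 0.09 at 48 h (adjusted p = 0.00018).

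The counts of the next 3 lists at 24 h stand beside 11.4% of all genes called higher and 14.2% called lower. Among initiation factors, 1 of 39 was called higher and 5 lower at 24 h, with a median of -0.10, and among 10 elongation factors 1 was called higher and 1 lower. The gene of that list called higher was Eef2k, the kinase that inhibits elongation factor 2, with 36.5, 48.0 and 45.6 CPM at 0 h and 169.8, 167 and 169.8 CPM at 24 h, a rise of 1.98 ± 0.13 (adjusted p = 6.2e-05). In the list of TOP mRNA control by mTORC1, 3 of 17 genes were called higher and 2 lower at 24 h. Mtor itself rose by 1.15 ± 0.10 (adjusted p = 0.00027), from 276, 277 and 291 CPM to 653, 615 and 582 CPM, and Larp1b by 1.00 ± 0.11 (adjusted p = 0.00065). Rps6kb2, an S6 kinase, fell by 1.31 ± 0.15 (adjusted p = 0.00081), and Larp1 by 0.36 ± 0.11 (adjusted p = 0.0456).

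**Figure D5:**
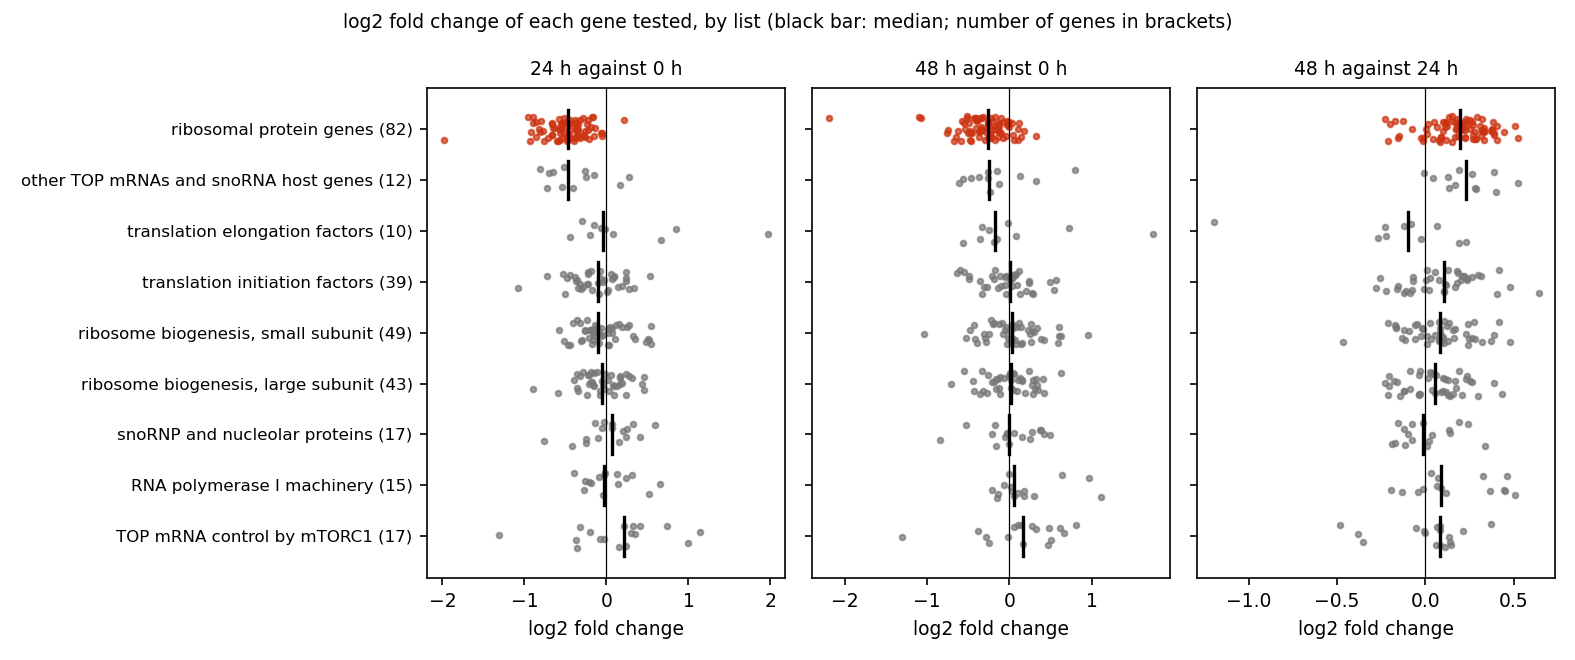
log2 fold change of each gene tested (points) in the ribosomal protein genes (red) and 8 lists of the translation machinery (grey), in 3 comparisons, with the median as a black bar. At 24 h against 0 h, the ribosomal protein genes and the other TOP mRNAs share a median of -0.46, and the other lists have medians between -0.11 and 0.22.

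Markers of other cells moved with time. The summed level of 10 stromal and fibroblast markers was 767 to 912 CPM at 0 h, 2783 to 3213 CPM at 24 h and 3866 to 4176 CPM at 48 h, and that of 7 peritubular myoid markers 37.9 to 41.7, 193 to 253 and 327 to 384 CPM. For 10 Sertoli cell markers it was 27.8 to 32.8, 56.1 to 89.1 and 71.1 to 75.4 CPM, with Fshr at 3 counts or fewer in every library, and for 6 Leydig cell markers 4.48 to 6.79, 24.6 to 38.5 and 25.2 to 32.5 CPM, with Lhcgr at 3 counts or fewer. The 6 endothelial markers went from 45.0 to 49.4 CPM at 0 h to 14.8 to 18.9 and 12.4 to 13.2 CPM, and the 6 macrophage markers from 16.3 to 18.0 to 6.79 to 11.8 and 7.64 to 8.40 CPM. The macrophage sum rests mainly on Cd68, the 1 marker of that list with a mean of 1 CPM or more at 0 h. Of the 3 macrophage markers tested at 24 h, Cd68 was called lower, and Csf1r and Cd14 were called higher. Of 5 endothelial markers tested, 3 were called lower and 1 higher. The lists whose sums rose were also mixed. At 24 h, 6 of 9 Sertoli markers tested were called higher and 3 lower, and 6 of 10 stromal markers higher and 1 lower. At 48 h relative to 0 h, 1 Sertoli and 1 stromal marker were called lower, against 6 and 7 called higher. Of all genes tested at 24 h, 11.4% were called higher and 14.2% lower. The 7 germ cell markers overlapped over time, at 1324 to 2432, 1573 to 1816 and 1694 to 1966 CPM. The part of these cells in the ribosomal protein results was not tested, and fewer cells of a type and less RNA per cell cannot be told apart in these bulk libraries.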

How the data were processed

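RNA was sequenced from 3 biological replicates at each of 3 time points. The authors deposited raw, unnormalized counts of reads per Ensembl gene, in 1 file a library (9 in all). The submitters' processing notes name fastp, HISAT2, featureCounts and GRCm38. Their versions, the annotation and the handling of reads on several genes are not given in the sources used here. Symbols came from GENCODE M21 (45229 identifiers matched, 849 did not). 0 columns were left without a sample.

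Each comparison used the 6 libraries of its groups in edgeR 4.0.16 (R 4.3.3): filterByExpr, TMM, the two-sided quasi-likelihood test and Benjamini-Hochberg adjustment over all genes tested, with a threshold of 0.05. SE are those of the log2 fold changes, computed here as the absolute log2 fold change divided by the square root of the test's F statistic. CPM are TMM-normalized over 9 libraries. FPKM used the union of exons and, added after the data were seen, the principal coding transcript. Matches between transcripts were found with BLAST 2.17.0. Runs and motifs were searched in RefSeq promoters (GRCm38.p6, 250 bases before to 50 after a start). Figures were drawn with matplotlib 3.10.9 (Python 3.11.15). Fits of 24 h against 0 h were also run on simulated counts with known fold changes. No simulated library was set apart from its group, so this run does not cover the spread seen at 0 h.

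Named genes were members with roles of their own, paralog sets, the 5 largest rises and falls among members called, the 3 highest and lowest members, the most counted member, and the largest changes of each list. Rps14, Rps15a, Rps18, Rpl26, Rpl7, Cd68, Csf1r, Cd14 and the members called in every fit were named after their values were seen. So were Rpl21, Tpt1, Pabpc1 and Snhg6. Some genes that these rules take are not reported here. The members, lists and rules were chosen with earlier results of these data known. Alternatives were DESeq2 1.42.0, other normalizations and filters, a joint fit of all libraries, a block for the replicate number, offsets for GC content and length, and leaving out each library.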

Additional observations from a re-analysis of the deposited data

How the results depend on the processing

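The median log2 fold change of the ribosomal protein genes kept its sign in every alternative run, from -0.60 to -0.31 at 24 h, from -0.43 to -0.14 at 48 h (both against 0 h) and from 0.13 to 0.32 at 48 h relative to 24 h. The number of calls did not hold, and the cause was not tested. Among the alternatives, the share of all genes called is given only for the fits without replicate 1 of 0 h. Whether calls over all genes moved in the same way was not tested. At 24 h, the 26 genes called lower became 15 with library size alone (which moved the median of all genes by about 0.11), 40 with all 9 libraries in 1 fit, 42 with GC and length offsets, and 8 to 64 when 1 library was left out, where 0 to 2 were called higher. At 48 h relative to 0 h, the 18 became 9 with library size alone and 4 to 50 when 1 library was left out, and 1 gene, Rpl10l, was called higher with library size alone and with GC and length offsets, with 0 to 1 when 1 library was left out. At 48 h relative to 24 h, the 17 called higher became 34 with DESeq2, 38 with no expression filter and 1 with all 9 libraries in 1 fit, and 4 to 48 when 1 library was left out, and those called lower became 1 with no filter and 0 to 1 when 1 library was left out. Same-numbered libraries correlated at -0.28 to 0.20 in their deviations from the group means, and differently numbered ones at -0.39 to 0.38. Whether libraries of the same replicate number were paired cannot be told from these values. With that number as a block, 19 genes were called lower at 24 h, 8 were at 48 h (both against 0 h) and 14 were called higher at 48 h relative to 24 h, and with the block and the offsets 38 and 19 lower, 1 higher at 48 h relative to 0 h and 26 higher at 48 h relative to 24 h. Over all members, the sign of the log2 fold change turned in at least 1 alternative for 10 at 24 h, 28 at 48 h (both against 0 h) and 21 at 48 h relative to 24 h, of which 0 were called with all libraries and the settings of the report. Those called after turning were Rps18 at 24 h (0.50 without replicate 3 of 0 h) and Rpl23a at 48 h relative to 0 h (-0.35 without replicate 1 of 0 h, against 0.12). Among the values printed, those that turned were those of Rpl23a at 24 h (0.018 with the block, and -0.80 to 0.064 when 1 library was left out), Rplp1 at 24 h (-0.50 to 0.028 when 1 library was left out) and Rpl39l at 48 h (0.048 with library size alone, and -0.22 to 0.092 when 1 library was left out). With the pseudogenes, the share of counts became 5.94% at 0 h, 4.71% at 24 h and 5.37% at 48 h. Of the counts on protein-coding genes it was 5.69%, 4.43% and 5.08%, and without mitochondrial genes 5.51%, 4.31% and 4.94%.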
